A study of Mus musculus with 4 samples.

Results

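A set of 10 genes of the heat shock protein and chaperone family, out of the 51826 rows of the deposited count table, were followed through serial passage of cultured hair follicle mesenchyme. They were found in the table by gene symbol. They were Hspa1a, Hspa1b, Hspa8, Hsph1, Hspb1, Hsp90aa1, Dnajb1, Hspd1, Hspe1 and Cryab. All 10 passed the filter on low counts, a mean of 10 or more over the libraries, and were among the 16734 genes compared. The cells were dermal papilla cells (DPCs), the mesenchyme of the hair bulb, and dermal sheath cells (DSCs), the mesenchyme wrapped around the follicle. Both were cultured in DMEM from whisker follicles of young EGFP-transgenic C57BL/6J mice, and the labels give the genotype as WT. RNA was sequenced at passage 3 (low passage) and passage 9 (high passage), with 1 library for each of the 4 combinations and no replicates. The design compared the cells of low and high passage. The promoter that drives EGFP, and whether animals were pooled for a culture, were not given in the sources used here.

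Heat shock proteins are chaperones that hold, fold and refold other proteins. Heat shock factors bind repeated short elements in their promoters, and Hsf1 is the factor best known for the response to misfolded protein. The HSP70 proteins bind unfolded stretches of their clients, J proteins such as Dnajb1 deliver clients to them and stimulate their ATPase, and HSP110 proteins such as Hsph1 release the nucleotide. HSP90 takes over clients in a late folding state, Hspd1 and Hspe1 form the folding chamber of the mitochondrial matrix, and the small heat shock proteins Hspb1 and Cryab hold unfolding proteins without using ATP. Hspa8 and Hsp90aa1 are abundant in most cells, whereas Hspa1a and Hspa1b are the classical stress-inducible HSP70 genes.

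The widest differences were those of 4 genes, grouped here by their values. The cytosolic HSP70 genes Hspa1a and Hspa1b, the HSP110 gene Hsph1 and the small heat shock gene Cryab had higher values at passage 9 than at passage 3 in both cell types. Hsph1 and Cryab were much further apart in DPCs, by 6.88-fold and 9.17-fold, than in DSCs, by 2.22-fold and 1.85-fold. The mitochondrial pair Hspd1 and Hspe1 was lower at passage 9 in both cell types. Hsp90aa1 and Dnajb1 differed little between any of the 4 libraries, and Hspa8 and Hspb1 moved by small amounts in opposite directions in DPCs and DSCs.

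Promoter sequences are shown first, because heat shock factors act through elements in them. RefSeq promoter windows of build GRCm38.p6, which run from 250 bases before the transcription start to 50 bases after it, were matched by symbol for 7 of the 10 genes. Hspa8, Hsp90aa1 and Cryab were not analysed here. The letters searched were GAANNTTC and TTCNNGAA, each 2 inverted units and each its own reverse complement, and the 3-unit forms TTCNNGAANNTTC and GAANNTTCNNGAA, which are reverse complements of each other. Every 3-unit match contains 2-unit matches. Hspd1, Hsph1 and Dnajb1 have a pair of windows each, which makes 10 windows. A 2-unit match was found in 7 of the 10 windows, from 6 genes, and in 15.1% of all 32851 windows. A 3-unit match was found in 4 of the 10 windows, those of Hspe1 and Hsph1 and 1 of Hspd1, and in 0.603% of all windows. Neither window of Dnajb1 held these letters. Hspa1a and Hspa1b have near-identical windows and Hspd1 and Hspe1 share the same bases, so these are not separate cases. A match describes the letters and does not show that a factor bound.

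The windows below cover an inducible HSP70 gene, a small heat shock gene, the HSP110 gene and the shared promoter of the mitochondrial pair. The matched letters stand in capitals and each is written 5′ to 3′ on the strand of the gene. Hspb1 has a pair of matches and lies at chr5:135887669-135887918 on the plus strand. Hspa1b lies at chr17:34959239-34959488 on the minus strand. The Hsph1 stretches are 29 bases long and lie at chr5:149636351-149636379 and chr5:149636280-149636308 on the minus strand, with their matched letters inside the annotated extent of the gene. The Hspe1 stretch, chr1:55087933-55088131 on the plus strand, lies between the downstream RefSeq start of Hspd1 and the start of Hspe1, which are 215 bases apart and transcribed away from each other.
Hspa1b: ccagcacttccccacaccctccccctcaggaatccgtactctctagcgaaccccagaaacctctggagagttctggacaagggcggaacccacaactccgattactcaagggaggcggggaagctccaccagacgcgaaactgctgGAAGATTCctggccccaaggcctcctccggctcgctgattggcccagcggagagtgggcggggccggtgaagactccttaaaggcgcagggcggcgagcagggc
Hspb1: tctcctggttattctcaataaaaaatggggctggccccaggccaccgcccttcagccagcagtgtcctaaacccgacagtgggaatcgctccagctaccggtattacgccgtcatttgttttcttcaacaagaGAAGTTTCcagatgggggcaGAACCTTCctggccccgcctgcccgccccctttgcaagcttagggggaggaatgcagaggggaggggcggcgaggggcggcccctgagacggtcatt
Hsph1 (first stretch): ggtagaatctTTCTCGAAggctcgagaag
Hsph1 (second stretch): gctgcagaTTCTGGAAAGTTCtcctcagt
Hspe1: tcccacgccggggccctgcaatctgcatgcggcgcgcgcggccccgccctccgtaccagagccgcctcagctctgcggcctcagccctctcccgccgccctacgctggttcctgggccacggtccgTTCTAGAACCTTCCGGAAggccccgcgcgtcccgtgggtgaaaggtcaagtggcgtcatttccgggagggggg

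The Hspa1a and Hspa1b windows are nearly the same sequence. They differed at 4 of 300 positions, T44C, C47T, G249T and T276C, with the Hspa1b base first and positions counted from 1 at the first base of the window. Both hold the match GAAGATTC with its first base 104 bases before the start. In Hspb1 the matches began 117 and 97 bases before the start. In Hsph1, which has a pair of RefSeq starts, the 3-unit match TTCTGGAAAGTTC began 36 bases after the first and 15 bases after the second. In Hspe1 the run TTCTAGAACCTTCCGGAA holds both 3-unit forms in overlap, and the same bases read on the other strand belong to the Hspd1 window. The plot of match positions sets these side by side.

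**Figure D1:**
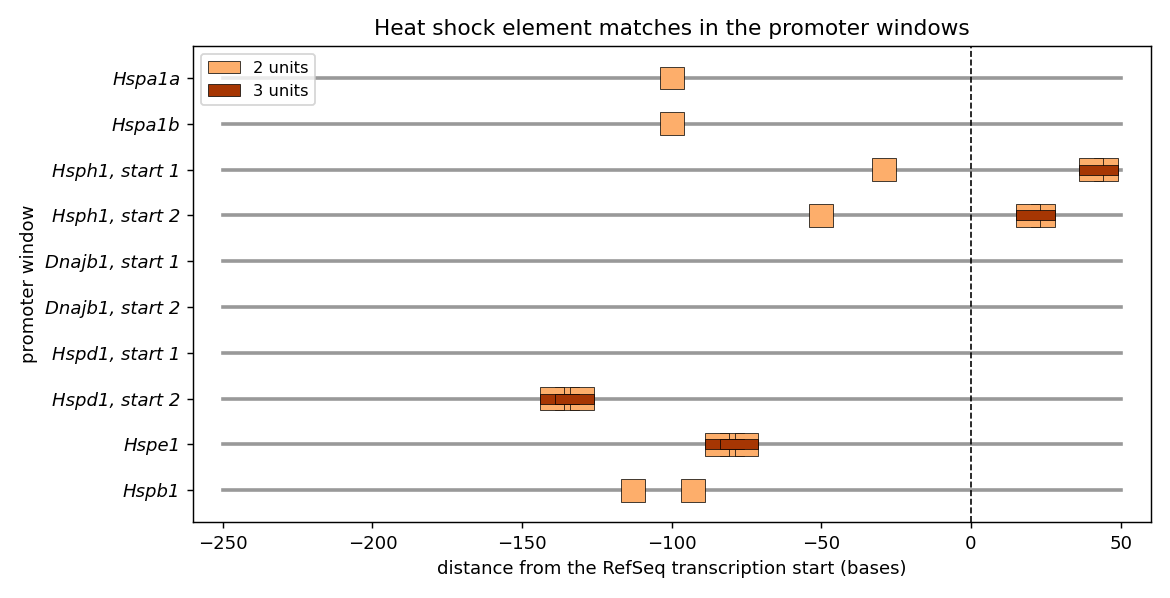
Positions of heat shock element matches (boxes; pale, 2 units; dark, 3 units) in each RefSeq promoter window (grey line), with the distance from the transcription start in bases on the x axis and 1 window a row. The Hspa1a and Hspa1b matches share 1 position, Hspd1, Hspe1 and Hsph1 hold 3-unit matches, and the Dnajb1 windows and the first Hspd1 window hold none.

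The libraries were deep, with total counts between 34981284 and 47604059, and a count of 0 allowed at most 3 counts, or 0.0630 to 0.0858 CPM (counts scaled to a fixed library total). The labelled cell types were checked against fixed markers. The fibroblast genes Col1a1, Col1a2, Vim and Acta2 were abundant in all 4 libraries, whereas Lum had 8 and 0 counts in DPCs and 0 and 109 in DSCs. Sox2, a papilla gene, had 1677 and 1491 counts in DPCs against 269 and 178 in DSCs. The papilla markers Alpl and Lef1 were poor in places. Alpl had 6 to 23 counts a library. Lef1 had 508 and 2 counts in DPCs at passages 3 and 9, and 101 and 55 in DSCs. Of Sox2, Alpl and Lef1, only Sox2 had more counts in DPCs than in DSCs at both passages. Acta2, which the study used as a sheath marker, had 262118 and 67135 counts in DPCs and 217199 and 197315 in DSCs. Ncam1, which the study used for both cell types, had 3642 and 1673 counts in DPCs and 11755 and 15584 in DSCs. The keratinocyte genes Krt5, Krt14, Krt15 and Cdh1 and the melanocyte genes Tyr, Tyrp1, Dct and Mlana were at 0 in every library. All 10 heat shock genes had at least 1734 counts in every library. Counting error was thus small, although a few of the smaller differences given below lie within it. In bulk RNA, fewer cells of a kind and less RNA per cell cannot be told apart.

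Fold changes are differences of log2 CPM (TMM-scaled, prior count 2) and stand for passage 9 relative to passage 3, except where DPCs are set against DSCs. Each carries a 95% counting interval, the exact Clopper-Pearson interval of one library's share of the counts of a pair of libraries. Such an interval covers counting error only, so it compares those libraries and not the conditions. Levels between genes are compared as the deposited FPKM, which is scaled by transcript length and by depth. Shares of counts between genes are also given, and these are not scaled by transcript length. Since each group is 1 library, a gene is called at an absolute log2 fold change of 2 (4-fold), the study's own threshold, and also at 1 (2-fold).

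The inducible HSP70 genes were higher at passage 9 in both cell types. Hspa1a had 2482 counts in DPCs at passage 3 and 8008 at passage 9, and 3084 and 9291 in DSCs. The passage 9 libraries were both high and the passage 3 libraries both low, with no overlap between passages. The log2 fold change of Hspa1a was 1.73 in DPCs (interval 1.66 to 1.79) and 1.33 in DSCs (1.27 to 1.39), or 3.31-fold and 2.51-fold. Hspa1b had 5639 and 20048 counts in DPCs and 6466 and 22546 in DSCs. Its pattern was that of Hspa1a, with log2 fold changes of 1.87 (1.82 to 1.91) in DPCs and 1.54 (1.5 to 1.58) in DSCs. The copies sit on chromosome 17, Hspa1a at 34969190 to 34972156 and Hspa1b at 34956436 to 34959238 in GRCm38 coordinates, both on the minus strand.

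Reads of the pair are hard to assign, because 66.3% of the 50-base windows of Hspa1a and 62.3% of those of Hspa1b also occur in another gene. Hspa1a took 30.6% of the counts of the pair in DPCs at passage 3 (exact binomial interval 29.6 to 31.6) and 28.5% at passage 9 (28.0 to 29.1). In DSCs it took 32.3% (31.4 to 33.2) and 29.2% (28.7 to 29.7). The split of the pair moved little between libraries. Summed as 1 gene, the pair had a log2 fold change of 1.83 in DPCs and 1.47 in DSCs. Hspa1a also overlaps Gm20481 on the opposite strand over 564 exonic bases, but Gm20481 had 4 to 26 counts a library.

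The constitutive HSP70 gene Hspa8, which folds new proteins and uncoats clathrin vesicles, did not follow Hspa1a and Hspa1b. It had 35347 and 45609 counts in DPCs at passages 3 and 9, and 41006 and 39090 in DSCs. The highest and the lowest scaled levels were therefore both at passage 9, 1272 CPM in DPCs and 858 CPM in DSCs, with the passage 3 libraries between them. With passage the difference was 0.40 in DPCs (0.38 to 0.42) and -0.33 in DSCs (-0.35 to -0.31). Hspa8 shares 39.4% of its windows with other genes. One of these, Gm15459, had 7025, 8863, 7384 and 7906 counts in the order DPCs at passages 3 and 9 and DSCs at passages 3 and 9.

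Inducible and constitutive HSP70 were set against each other within each library. Hspa1a and Hspa1b together took 18.7% (18.3 to 19.1) of the counts of Hspa1a, Hspa1b and Hspa8 in DPCs at passage 3 and 38.1% (37.7 to 38.4) at passage 9. In DSCs they took 18.9% (18.5 to 19.2) and 44.9% (44.5 to 45.3). The shares at passage 3 were alike in the cell types, and both were higher at passage 9. DSCs had the larger inducible share at passage 9, although Hspa1a and Hspa1b relative to the library were slightly higher in DPCs, and the DSC library at passage 9 had the lowest Hspa8 level of the 4.

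Hsph1, the HSP110 nucleotide exchange factor of HSP70, was next to Cryab the most variable of the 10 genes over the libraries, with a ratio of 7.83 between the highest and the lowest scaled level. It had 3530 counts in DPCs at passage 3 and 23705 at passage 9, against 3198 and 8530 in DSCs. Both passage 9 libraries lay above both passage 3 libraries, and the DPC library at passage 9 stood far above the other 3. Its log2 fold change was 2.78 in DPCs (2.73 to 2.84) and 1.15 in DSCs (1.09 to 1.21). No 50-base window of Hsph1 occurs in a transcript of another annotated gene. Copies outside the annotation, or with mismatches in every window, were not searched for. At passage 9, Hsph1 was 3.53-fold higher in DPCs than in DSCs, while at passage 3 the ratio was 1.14.

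The other HSP110 genes are Hspa4 and Hspa4l, which belong to the list of other HSP70 and HSP110 genes. Hspa4l had 2838 and 21531 counts in DPCs and 1858 and 6643 in DSCs, a log2 fold change of 2.96 (2.90 to 3.02) in DPCs and 1.57 (1.5 to 1.65) in DSCs. The order of its libraries by passage was that of Hsph1. Hspa4, with 79.3 FPKM in DPCs at passage 3 against 27.6 for Hsph1 and 11.3 for Hspa4l, differed less, by 0.93 in DPCs and 0.65 in DSCs. Hsph1 took 16.9% (16.4 to 17.5) of the counts of the 3 genes in DPCs at passage 3 and 32.9% (32.5 to 33.2) at passage 9. In DSCs the shares were 16.6% (16.1 to 17.2) and 20.4% (20.0 to 20.7).

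Dnajb1, the stress-inducible J protein that partners Hspa1a and Hspa1b, differed little. It had 2002 and 1734 counts in DPCs and 1870 and 2498 in DSCs. Scaled levels lay between 48.4 and 54.8 CPM, a ratio of 1.13 between the highest and the lowest library, the narrowest of the 10 genes. Its log2 fold change was -0.17 in DPCs (-0.26 to -0.08) and 0.15 in DSCs (0.07 to 0.24). The inducible HSP70 genes and their J protein thus had different values with passage in these libraries.

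Hsp90aa1, the stress-responsive cytosolic HSP90, was also close to level. It had 16028 and 15902 counts in DPCs and 12692 and 16980 in DSCs. The DPC libraries were a little above the DSC libraries on the scaled level, at 436 and 443 CPM against 335 and 373 CPM. On the log2 scale the change was 0.02 in DPCs (-0.01 to 0.06), and its sign changed without the filter on low counts and on the FPKM scale, over a range of -0.02 to 0.06. In DSCs it was 0.15 (0.12 to 0.19). Hsp90aa1 shares 47.5% of its windows with other genes, and the largest of these, Gm12346, had 1650, 1577, 1307 and 1494 counts in the same order. Hsp90aa1 took 23.4% (23.1 to 23.8) and 27.7% (27.3 to 28.0) of the counts of Hsp90aa1 and Hsp90ab1 in DPCs at passages 3 and 9. In DSCs it took 17.3% (17.1 to 17.6) and 23.8% (23.5 to 24.1). The share of the stress-responsive form was higher at passage 9 in both cell types, with Hsp90ab1, the constitutive form, lower by log2 fold changes of -0.30 in DPCs and -0.42 in DSCs.

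The mitochondrial chaperonin genes Hspd1 (HSP60) and Hspe1 (HSP10) had lower values at passage 9. Hspd1 had 12727 and 6869 counts in DPCs and 10826 and 8523 in DSCs. Both passage 3 libraries lay above both passage 9 libraries on the scaled level, at 346 and 286 CPM against 192 and 187 CPM. The log2 fold change was -0.85 in DPCs (-0.90 to -0.81) and -0.61 in DSCs (-0.65 to -0.57). Hspe1 had 4702 and 2594 counts in DPCs and 3275 and 3341 in DSCs. Its log2 fold change was -0.82 in DPCs (-0.89 to -0.75) and -0.24 in DSCs (-0.31 to -0.17), and its passage 9 libraries were again both below its passage 3 libraries.

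The ratio within the pair was alike at both passages in DPCs and not in DSCs. Hspe1 took 27.0% (26.3 to 27.6) of the counts of Hspd1 and Hspe1 in DPCs at passage 3 and 27.4% (26.5 to 28.3) at passage 9. In DSCs it took 23.2% (22.5 to 23.9) and 28.2% (27.4 to 29.0), so the DSC library at passage 3 had the lowest share. Hspd1 and Hspe1 lie head to head on chromosome 1 and overlap on opposite strands over 112 exonic bases, and 42.1% of Hspd1 windows and 22.8% of Hspe1 windows occur in other genes. The processed copy Hspd1-ps3 had 243 and 100 counts in DPCs and 153 and 109 in DSCs.

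The small heat shock genes had unlike values. Cryab, the small heat shock protein best known from lens and muscle, had 2381 and 21314 counts in DPCs and 2641 and 5870 in DSCs. Both passage 9 libraries lay above both passage 3 libraries, and the DPC library at passage 9 stood alone. The log2 fold change was 3.20 in DPCs (3.14 to 3.26), the largest of the 10 genes, and 0.89 in DSCs (0.82 to 0.95). At passage 9 Cryab was 4.61-fold higher in DPCs than in DSCs, while at passage 3 the ratio was 0.929. Cryab overlaps its neighbour Hspb2 on the opposite strand over 252 exonic bases, but Hspb2 had 47, 62, 84 and 113 counts in DPCs and DSCs at passages 3 and 9.

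Muscle genes were read beside Cryab, which muscle also expresses. Myod1 and Ckm were at 0 in every library. Of the 8 muscle markers, 3 or 4 were above the floor in each library. Their summed level was 42.0 CPM in DPCs at passage 3 and 1.98 CPM at passage 9, and 50.1 and 25.8 CPM in DSCs. The difference lay in the actin Acta1, with 1495 and 13 counts in DPCs and 1837 and 1083 in DSCs, whereas Tnnt3 (26 and 27 counts) and Mylpf (25 and 29 counts) were level in DPCs.

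Hspb1 (HSP25), which binds actin filaments, had 4541 and 3488 counts in DPCs and 3392 and 5233 in DSCs. On the log2 scale the change was -0.34 in DPCs (-0.41 to -0.28) and 0.36 in DSCs (0.30 to 0.42), so its libraries overlapped between passages. Hspb1 shares 50.1% of its windows with other genes, and the processed copy Hsp25-ps1 had 659 and 519 counts in DPCs and 482 and 762 in DSCs. Cryab took 34.4% (33.3 to 35.5) of the counts of Cryab and Hspb1 in DPCs at passage 3 and 85.9% (85.5 to 86.4) at passage 9. In DSCs the share was 43.8% (42.5 to 45.0) and 52.9% (51.9 to 53.8).

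**Figure D2:**
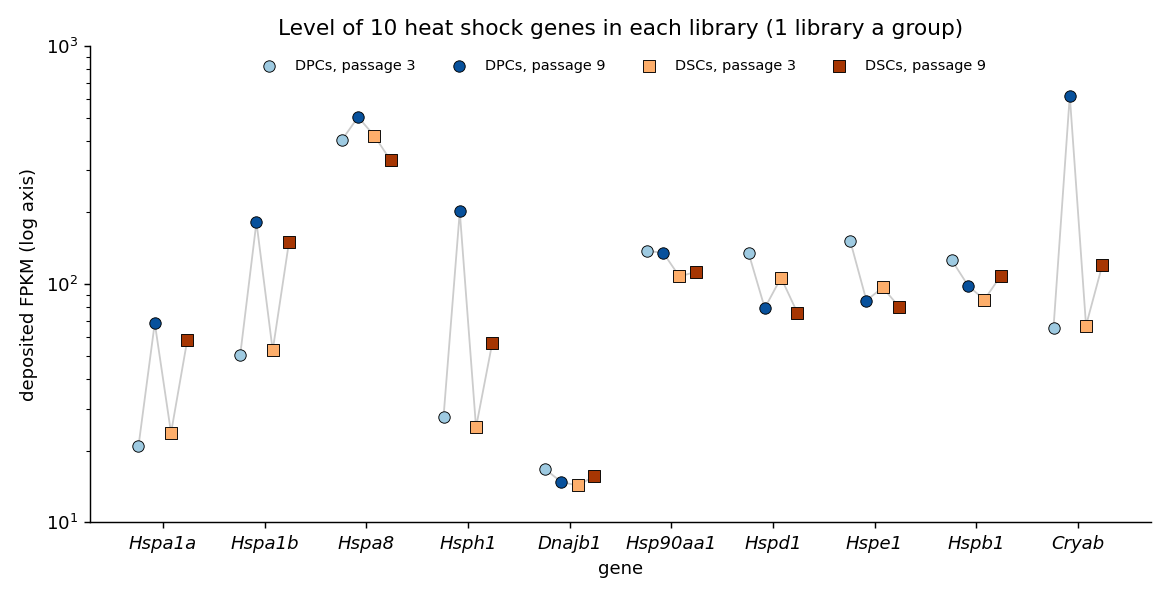
Deposited FPKM (y axis, log scale) of the 10 genes (x axis) in each of the 4 libraries, 1 point a library joined by a grey line for each gene (circles, DPCs; squares, DSCs; pale, passage 3; dark, passage 9). Hspa8 was highest in 3 libraries, and Cryab at 618 FPKM was highest in DPCs at passage 9.

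Per transcript length, the order of the genes was alike at passage 3 in DPCs and DSCs. Hspa8 led with 402 and 419 FPKM. In DPCs it was followed by Hspe1, Hsp90aa1, Hspd1 and Hspb1, from 152 down to 126 FPKM. In DSCs the same genes followed as Hsp90aa1, Hspd1, Hspe1 and Hspb1, from 108 down to 86.0 FPKM. Cryab, Hspa1b, Hsph1 and Hspa1a came next, between 65.5 and 20.9 FPKM in DPCs and between 67.0 and 23.7 FPKM in DSCs, and Dnajb1 was last at 16.7 and 14.3 FPKM. With 1 library a group there is no spread against which to separate neighbours such as Hsp90aa1 at 138 FPKM and Hspd1 at 135 FPKM.

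At passage 9 the order had changed, and more so in DPCs. Cryab led in DPCs with 618 FPKM, ahead of Hspa8 at 503, Hsph1 at 202 and Hspa1b at 182 FPKM. Cryab ranked 53rd of all genes by FPKM there and 973rd in DPCs at passage 3. In DSCs at passage 9, Hspa8 still led with 331 FPKM, followed by Hspa1b at 149.8 and Cryab at 120.2 FPKM. Dnajb1 remained last in both, at 14.7 and 15.6 FPKM.

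The 10 genes together took 0.253% (0.251 to 0.255) of all counts in DPCs at passage 3 and 0.427% (0.425 to 0.429) at passage 9. In DSCs they took 0.228% (0.227 to 0.230) and 0.256% (0.255 to 0.258). Hspa8 was 39.5% of the total of the 10 genes in DPCs at passage 3 and 30.6% at passage 9, and 46.4% and 32.1% in DSCs. Cryab went from 2.66% to 14.3% of the total in DPCs and from 2.99% to 4.82% in DSCs. Hsph1 went from 3.95% to 15.9% in DPCs and from 3.62% to 7.00% in DSCs, as the plot of count shares shows.

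**Figure D3:**
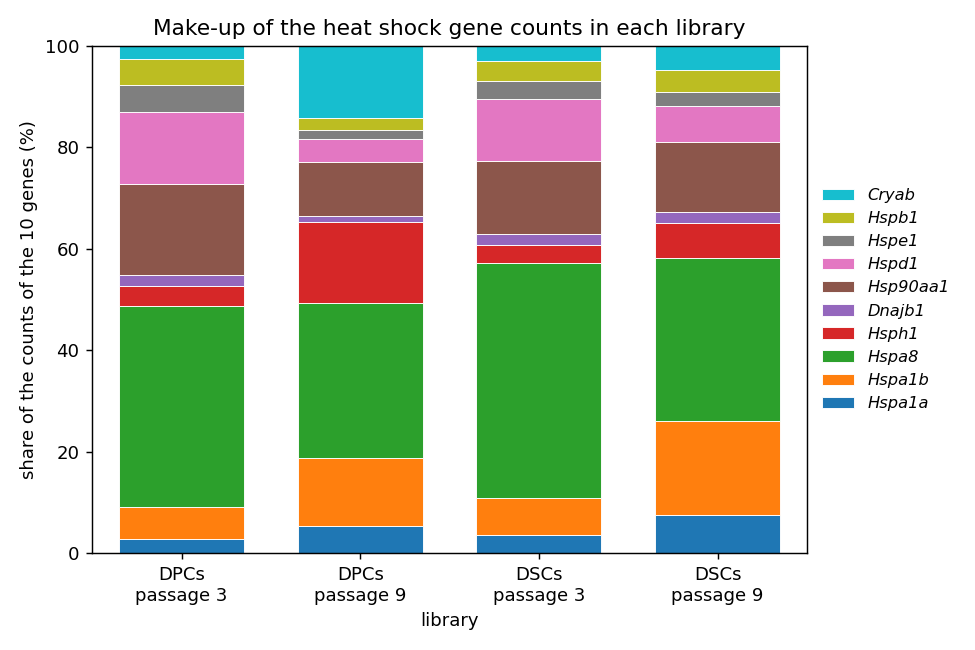
Share of the summed counts of the 10 genes (y axis, percent) taken by each gene (colours) in each library (x axis), 1 library a bar. Hspa8 is the largest block in every library, Cryab grows from 2.66% to 14.3% in DPCs, and Hspa1b grows from 7.31% to 18.5% in DSCs.

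The calls were counted against those of all genes compared. In DPCs, 2 of the 10 genes were higher at passage 9 by at least 4-fold, Hsph1 and Cryab, where 5.58% of all genes were, and none was lower (4.36% of all genes). By at least 2-fold, 4 were higher (16.1% of all genes), Hspa1a, Hspa1b, Hsph1 and Cryab, and none was lower (15.0% of all genes). In DSCs, 0 of the 10 genes passed 4-fold in either direction (2.67% of all genes were higher and 1.16% lower). By at least 2-fold, 3 were higher (8.55% of all genes), Hspa1a, Hspa1b and Hsph1, and none was lower (6.21%). The median log2 fold change of the 10 genes was 0.21 in DPCs and 0.26 in DSCs, beside 0.03 and 0.00 over all genes compared.

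**Figure D4:**
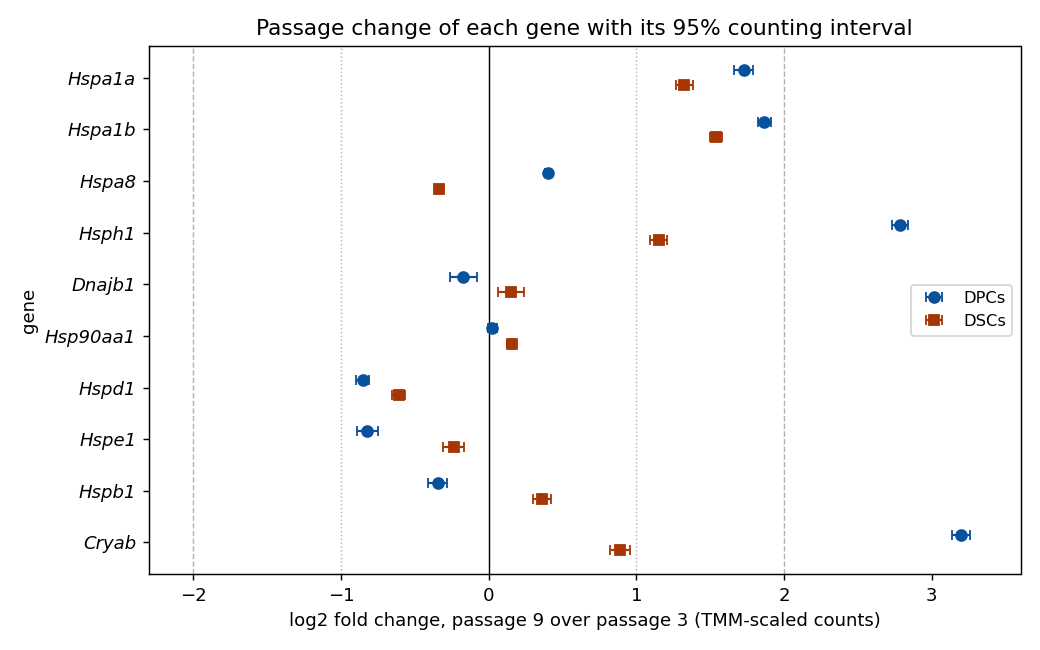
Log2 fold change of passage 9 over passage 3 (x axis) of the 10 genes (y axis) in DPCs (circles) and DSCs (squares), with bars for the 95% counting interval of the pair of libraries and lines at 2-fold (dotted) and 4-fold (dashed). Hsph1 and Cryab pass 4-fold in DPCs, no gene does in DSCs, and Hspa8, Hspb1 and Dnajb1 lie on opposite sides of 0 in DPCs and DSCs.

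Counting error alone was exceeded by most changes, as it was for most genes of the libraries. The counting interval excluded 0 for 9 of the 10 genes in DPCs (77.6% of all genes), all but Hsp90aa1, and for 10 of 10 in DSCs (66.7%). The sign of the passage change was opposite in DPCs and DSCs for Hspa8, Hspb1 and Dnajb1, 3 of 10 genes, beside 29.4% of all genes. The difference between the cell types in their response to passage could not be tested, since each combination is 1 library.

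The only test that the design allows is an additive model with terms for cell type and passage. Its single residual degree of freedom is the difference between the responses of DPCs and DSCs and not a spread of replicate cultures. In edgeR's quasi-likelihood test with Benjamini-Hochberg adjustment, 0 of the 10 genes and 0 of 16734 genes (0.0%) passed an adjusted p of 0.05 for passage. At an unadjusted p under 0.05 were 5 of the 10 genes, Hspa1a, Hspa1b, Hsph1, Cryab and Hspd1, and 2822 of all genes (16.9%). The smallest adjusted p of the 10 genes was 0.188, shared by Hspa1a (unadjusted p = 0.00158) and Hspa1b (unadjusted p = 0.00163), whose changes in DPCs and DSCs lay closer together than those of Hsph1 and Cryab. Hsph1 (adjusted p = 0.209) and Cryab (adjusted p = 0.248) followed, and Hspd1, the only gene of the 5 that was lower at passage 9, had an adjusted p of 0.267.

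In DESeq2, with both terms kept, 955 genes were called for passage (6.06% of the 15760 that it gave an adjusted p). Of the 10 genes 4 were called, all higher at passage 9 (3.18% of genes were called as higher). The adjusted p in DESeq2 was 2.1e-06 for Hspa1b, 7.9e-05 for Hspa1a, 0.000275 for Hsph1 and 0.00204 for Cryab, and 0.128 for Hspd1. The 4 genes were higher at passage 9 in both cell types, as were 36.0% of all genes compared.

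DPCs and DSCs were compared at each passage to give a scale for these changes, with DPCs over DSCs and the same libraries as above. At passage 3, 0 of the 10 genes differed by 2-fold in either direction (5.43% of all genes were higher in DPCs and 7.86% lower) and none by 4-fold (1.52% and 2.77%). Their log2 ratios lay between -0.27 for Hspa1a and 0.56 for Hspe1. The counting interval excluded 0 for 10 of 10 genes (59.5% of all genes). At passage 9, Cryab was higher in DPCs by at least 4-fold (2.5% of all genes), Hsph1 and Cryab were by at least 2-fold (9.11%), and none was lower by 4-fold (3.91%) or 2-fold (11.0%). The log2 ratios were 2.20 (2.16 to 2.25) for Cryab and 1.82 (1.78 to 1.86) for Hsph1. Of the others, Hspa8 was next at 0.57 (0.55 to 0.59), and the counting interval excluded 0 for 8 of the 10 genes (70.7% of all genes), all but Hspd1 and Hspe1. The sign for Hspe1 at passage 9 changed with the scaling, between -0.04 and 0.09.

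The cell type term of the additive model called 0 of the 10 genes in edgeR's quasi-likelihood test (0.0% of all genes) and 0 of the 10 in DESeq2 (3.21% of the genes it gave an adjusted p). None of the 10 had an unadjusted p under 0.05 in edgeR, where 8.25% of all genes did. The smallest was 0.0821, for Hsph1.

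The other chaperone genes were read in 9 lists with 100 genes, 97 of which were compared. Hsf5, Hspb3 and Cryaa were below the minimum count. Over the 97 genes the median log2 fold change was 0.02 in DPCs and 0.01 in DSCs, close to the medians of all genes. In DPCs 6 were higher and 7 lower by at least 2-fold, or 6.19% and 7.22% beside 16.1% and 15.0% of all genes. By at least 4-fold, 1 was higher and 1 lower (5.58% and 4.36% of all genes). In DSCs, 2 were higher and 2 lower by at least 2-fold (8.55% and 6.21% of all genes) and none passed 4-fold (2.67% and 1.16%). In edgeR's quasi-likelihood test 0 of the 97 passed the adjusted threshold for passage and 13 had an unadjusted p under 0.05 (16.9% of all genes). DESeq2 called 3 of them, Hspa4l as higher and Fkbp5 and Serpinh1 as lower at passage 9 (6.06% of the genes it gave an adjusted p).

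**Figure D5:**
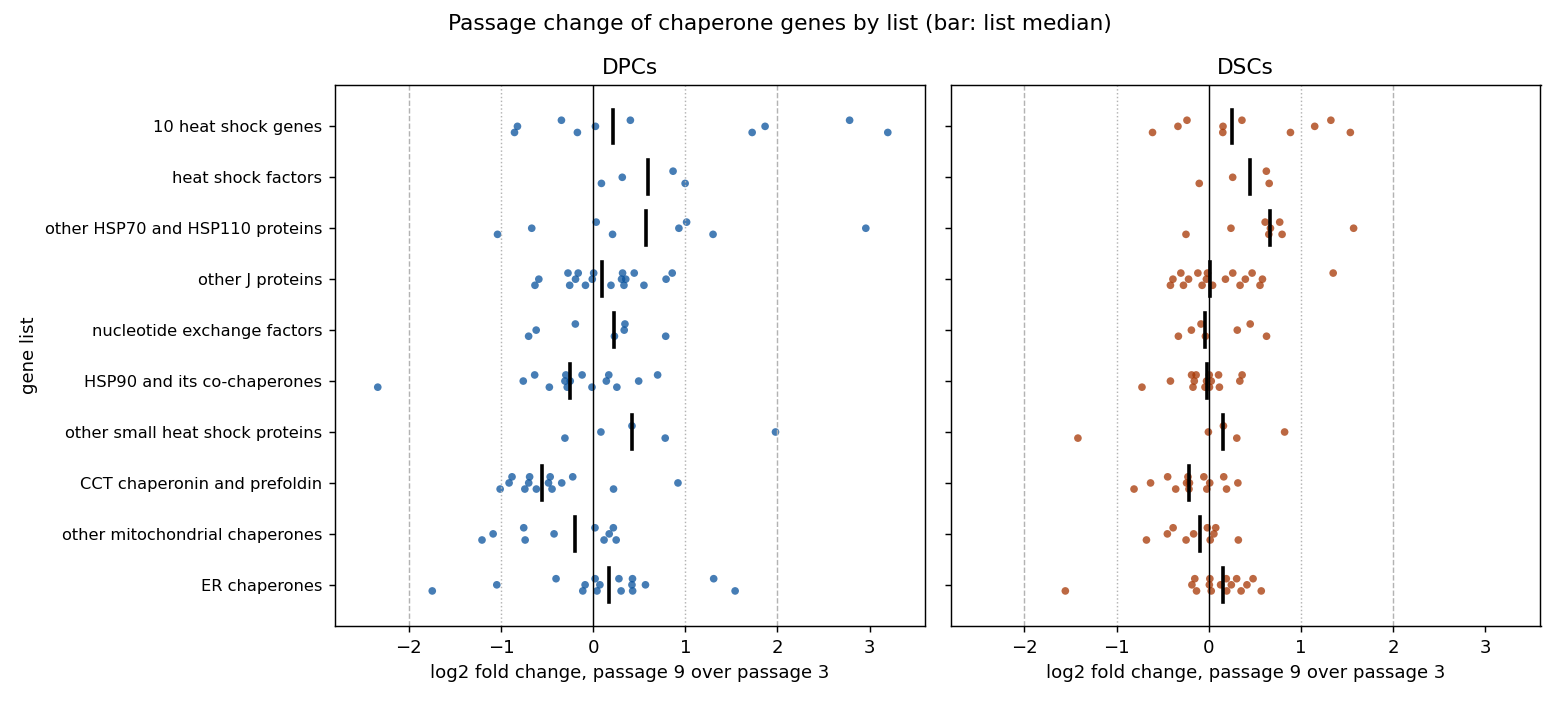
Log2 fold change of passage 9 over passage 3 (x axis) of each gene (points) in the 10 heat shock genes and 9 lists of other chaperone genes (y axis), for DPCs on the left and DSCs on the right, with a black bar at the median of each list and lines at 2-fold (dotted) and 4-fold (dashed). The median of the CCT and prefoldin list lies at -0.55 for DPCs and -0.21 for DSCs. That of the heat shock factor list, which includes the binding protein Hsbp1, lies at 0.59 and 0.44.

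The heat shock factors were low to moderate. Hsf1, the main regulator of the response, had 1605 and 1666 counts in DPCs and 1675 and 1874 in DSCs, with log2 fold changes of 0.09 (-0.01 to 0.19) and -0.10 (-0.20 to -0.01). Its scaled level lay between 41.1 and 46.5 CPM in the 4 libraries. Hsf2 had higher values at passage 9, with log2 fold changes of 0.87 (0.76 to 0.98) for DPCs and 0.63 (0.50 to 0.75) for DSCs, and had an unadjusted p of 0.0248 and an adjusted p of 0.25 in edgeR's quasi-likelihood test. Hsf4 had the largest change of the list on few counts, 16 and 33 in DPCs and 97 and 185 in DSCs. The list also holds Hsbp1, a binding protein of these factors and not itself one, with 3478 and 4223 counts in DPCs and 3770 and 5425 in DSCs. The median of the 4 genes compared, Hsf1, Hsf2, Hsf4 and Hsbp1, was 0.59 in DPCs and 0.44 in DSCs. None of them passed 2-fold with passage (16.1% of all genes were higher and 15.0% lower in DPCs, 8.55% and 6.21% in DSCs).

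Among the 8 other HSP70 and HSP110 genes, 3 were higher (16.1% of all genes) and 1 was lower (15.0%) by at least 2-fold in DPCs, and 1 was higher in DSCs (8.55%). Hspa4l, described above, was the only gene of the list past 4-fold. The median of the list was 0.57 in DPCs and 0.66 in DSCs, and 6 of the 8 genes were higher at passage 9 in both cell types, as were 36.0% of all genes. Hspa1l, which lies in the same cluster as Hspa1a and Hspa1b, had 100 and 243 counts in DPCs and 117 and 225 in DSCs.

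The co-chaperones had smaller values. In the list of 18 other J proteins the medians were 0.10 in DPCs and 0.01 in DSCs. The only gene past 2-fold was Dnajc6, an auxilin of clathrin uncoating, higher in DSCs with 6 and 22 counts (8.55% of all genes were higher). None of the 7 nucleotide exchange factors passed 2-fold. Of all genes, 16.1% were higher and 15.0% lower by 2-fold in DPCs, and 8.55% and 6.21% in DSCs. Bag3, which joins HSP70 to small heat shock proteins and is itself inducible by heat, was the furthest in DPCs. Its log2 fold change was 0.79 (0.73 to 0.84) in DPCs and 0.45 (0.40 to 0.50) in DSCs, from 4434 and 7464 counts in DPCs and 6147 and 10091 in DSCs. Bag2 was further in DSCs, at 0.63 (0.55 to 0.71), and was at -0.19 (-0.27 to -0.12) in DPCs. Among the 15 genes for HSP90 and its co-chaperones the medians were -0.25 and -0.02. Fkbp5, an immunophilin of steroid receptor complexes that glucocorticoids induce, was lower at passage 9 by at least 4-fold in DPCs. It had 2438 and 469 counts in DPCs and 1313 and 954 in DSCs, with log2 fold changes of -2.34 (-2.49 to -2.20) and -0.72 (-0.85 to -0.60), an adjusted p of 0.241 in edgeR's quasi-likelihood test and of 0.0189 in DESeq2.

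The other small heat shock genes ranged from low to as abundant as Cryab at passage 3. Hspb6 had 3492 and 5857 counts in DPCs and 2637 and 5609 in DSCs, or 44.7 to 111 FPKM. Its log2 fold changes were 0.78 (0.72 to 0.84) and 0.82 (0.76 to 0.89), with an unadjusted p of 0.0144 and an adjusted p of 0.225 in edgeR's quasi-likelihood test. Hspb8 had 58.6 to 63.5 FPKM. Of 5 genes compared, Hspb9 had the largest change in DPCs, from 9 to 40 counts, and had 3 and 5 counts in DSCs. Hspb7 was lower in DSCs, from 2127 to 954 counts, a log2 fold change of -1.42 (-1.53 to -1.31), and 585 and 461 counts were seen in DPCs. The list median was 0.42 in DPCs and 0.16 in DSCs, beside the 3.20 and 0.89 of Cryab.

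In the list of 14 CCT chaperonin and prefoldin genes, which fold actin and tubulin, 10 were lower at passage 9 in both cell types (34.4% of all genes) and 2 higher in both (36.0%), with medians of -0.55 in DPCs and -0.21 in DSCs. Cct5 had the largest change in DPCs, with 9739 and 4717 counts and a log2 fold change of -1.01 (-1.06 to -0.96). In DSCs Cct5 had 8268 and 7294 counts and a log2 fold change of -0.45 (-0.49 to -0.40). Pfdn4 and Cct8 changed more than Cct5 in DSCs, with log2 fold changes of -0.81 and -0.63. The other mitochondrial chaperones, which work beside Hspd1 and Hspe1, were split. Over 10 genes, 4 had higher values (36.0% of all genes) and 5 had lower values (34.4%) at passage 9 in DPCs and DSCs alike. The medians were -0.20 and -0.09, and 2 were lower by at least 2-fold in DPCs (15.0% of all genes). Trap1, the mitochondrial HSP90, had 3208 and 1355 counts in DPCs and 2882 and 2920 in DSCs, log2 fold changes of -1.21 (-1.30 to -1.12) and -0.25 (-0.32 to -0.17).

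The chaperones of the endoplasmic reticulum were mixed, with medians of 0.18 and 0.16 over 16 genes, and 11 were higher (36.0% of all genes) and 4 lower (34.4%) at passage 9 in both cell types. Serpinh1 (HSP47), the collagen chaperone, was the most reduced in level in both. It had 51944 and 15102 counts in DPCs and 56453 and 23068 in DSCs, log2 fold changes of -1.75 (-1.77 to -1.72) and -1.56 (-1.58 to -1.53). Its adjusted p was 0.19 in edgeR's quasi-likelihood test and 2.1e-06 in DESeq2. The collagen gene Col1a1, a client of Serpinh1, had 1139.9 and 190.2 FPKM in DPCs and 1583 and 1201 FPKM in DSCs, lower at passage 9 in both cell types. Col1a2 was also lower in both, with 1184 and 469 FPKM in DPCs and 2049 and 1661 FPKM in DSCs. Col3a1 was lower in DPCs, with 213 and 27.5 FPKM, but higher in DSCs, with 113 and 144 FPKM.

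The genes most like Hsph1 and Cryab, the 2 genes with the widest range, were sought by the Euclidean distance of centred log2 CPM over the 4 libraries among 12192 genes with a mean count of at least 100. For Cryab these were mt-Tm (distance 0.113), Jam2 (0.235) and Vegfd (0.287). Jam2 had log2 fold changes of 3.28 in DPCs and 0.76 in DSCs and Vegfd of 3.20 and 1.25. For Hsph1 they were Ust (0.167), 2310030G06Rik (0.216) and Il17d (0.260), with log2 fold changes of 2.57, 2.52 and 3.00 in DPCs and 1.06, 1.05 and 1.17 in DSCs. With 4 libraries such a likeness is a description of 4 values.

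Marker genes of other cells moved with passage too, and their part in the values above was not tested. The summed level of 8 immune markers was 118 CPM in DPCs at passage 3 and 64.7 CPM at passage 9, and 165 and 93.0 CPM in DSCs, with 6 of 8 above the floor in every library and Cd3e at 0. The 6 Schwann cell markers summed to 10.5 and 6.36 CPM in DPCs and 20.3 and 10.7 CPM in DSCs, with Sox10 at 28 and 0 counts and at 116 and 0 counts. The 6 endothelial markers summed to 5.65 CPM or less in every library. The 8 keratinocyte markers summed to 0.68 and 5.52 CPM in DPCs and 2.72 and 51.4 CPM in DSCs, with Dsp at 10 and 184 counts in DPCs and 84 and 2307 in DSCs. The 7 melanocyte markers summed to between 11.9 and 28.3 CPM, and the largest of them in every library was Mitf, with 394 to 980 counts. The 15 fibroblast and follicle genes summed to 27876 and 10037 CPM in DPCs and 34860 and 30146 CPM in DSCs, lowest in the DPC library at passage 9, in which Hsph1 and Cryab were highest. Col1a1, Col1a2 and Acta2 carried most of that sum, whereas Pdgfra (11173 and 29093 counts) and Dcn (4285 and 5494 counts) had more counts at passage 9 in DPCs.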

How the data were processed

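RNA of DPCs and DSCs at passages 3 and 9 was sequenced as 1 library for each of 4 groups, which were taken from the labels. The authors deposited raw counts per gene, whole numbers that were not normalized, and FPKM values, which the authors scaled by transcript length and depth. The submitters' processing notes name Bowtie 0.12.2 and the builds mm8 and mm9. Of 51826 gene IDs, 51633 were in the GENCODE M21 annotation of GRCm38, 94.1% of these at identical positions, the 10 genes included, so GRCm38 positions are given. The counting program and its use of strand are not given in the sources used here, the labels and the study's methods name different library kits, and no batch is given. Counts that overlapping genes and near-identical copies share are therefore uncertain.

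Counts were scaled with TMM in edgeR 4.0.16 (R 4.3.3), and a gene was kept if its counts averaged 10 or more. Log2 fold changes used a prior count of 2. The additive model used the quasi-likelihood test of edgeR, with p-values adjusted by Benjamini-Hochberg over all genes kept, and alternatives used DESeq2 1.42.0 and limma 3.58.1 on log2(FPKM + 0.1). The fits were also run on simulated data with known fold changes. Their performance on these libraries, which have no replicates, was not tested. Exact Clopper-Pearson intervals (scipy 1.17.1) and floors of 3 counts cover counting error only. Reads without molecular identifiers are not independent molecules. Shared sequence was the share of 50-base windows of the GENCODE M21 transcripts of a gene found in transcripts of other genes. Other settings tried were total-count, DESeq2 and upper-quartile scaling, other filters, prior counts and pseudocounts, Hspa1a and Hspa1b summed, and halved counts.

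The 10 genes and all lists were chosen with earlier results of these data known. All 10 genes are named. A list gene is named at a passage change of 4-fold or more in either cell type, at most 3 a list, otherwise the gene with the largest change, and likeness is given for the 2 genes with the widest range. Hsf1, Hsf2, Hsbp1, Hspa4, Hspa1l, Hsp90ab1, Hspb6, Hspb7 and Hspb8 were added after their values were seen. So were Bag2, Cct8, Pfdn4 and the collagen genes set beside Serpinh1.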

Additional observations from a re-analysis of the deposited data

Results flagged for a closer look

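Of the 10 genes, 3 had passage changes of opposite direction in DPCs and DSCs with both counting intervals clear of 0. The passage change in DPCs minus that in DSCs was 0.74 on the log2 scale for Hspa8, -0.70 for Hspb1 and -0.32 for Dnajb1. With 1 library in each combination of cell type and passage, these differences between the cell types were not tested. Of all genes compared, 29.4% had opposite directions. Groups of 1 library hold no outlying sample to look for.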

How the results depend on the processing

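The values depend most on the test. The additive model called 0 genes for passage in edgeR's quasi-likelihood test and 955 in DESeq2, and 0 and 4 of the 10 heat shock genes. For cell type, edgeR called 0 genes, 5 with DESeq2 size factors in place of TMM and 13 when genes averaged 100 or more counts, and DESeq2 called 496. The cause was not tested. All other counts of calls across the comparisons kept within 1.5 times under the settings tried. The log2 fold changes of the 10 genes moved by at most 0.16 under other scalings, filters, prior counts and FPKM, and the median of all genes by at most 0.10, between DPCs and DSCs at passage 9 on the FPKM scale. When counts were halved, in case both mates of each read pair had been counted, the interval of Cryab at passage 3 between DPCs and DSCs held 0. Beyond the additive model, which compares passages within cell types, no paired analysis was possible because the labels carry no replicate numbers. No library could be left out, since the additive model then has no residual degrees of freedom. Depth limits only genes with few counts, such as Hspb9, Hsf4 and Dnajc6.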

Other observations

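Some values outside the comparisons bear on the counting of copies. The pseudogene Hsp25-ps1 was among the 3 genes nearest to Hspb1 in pattern, with log2 fold changes of -0.31 in DPCs and 0.39 in DSCs against -0.34 and 0.36 for Hspb1. Gm26825, which shares 34.0% of the 50-base windows of Hspa8, had 2607 counts in DPCs at passage 3 and 1043 at passage 9, and 1987 and 2082 in DSCs. Its log2 fold change in DPCs was -1.28, whereas that of Hspa8 was 0.40 and that of another copy, Gm15459, was 0.37. These genes were named after their values were seen.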
